A study of Mus musculus with 3 samples.

Results

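The mitochondrial protein import machinery was read here as 33 genes among the 47593 gene rows of an RNA sequencing experiment on mouse primary neurons. The rule uses gene names only: it takes the rows whose symbols follow the Timm and Tomm numbering, with Timmdc1 and Samm50, and 8 further genes named one by one (Pam16, Grpel1, Grpel2, Mtx1, Mtx2, Chchd4, Pmpca and Pmpcb). The cells were wild-type neurons of the hippocampus, a region needed for new memories. They were kept in Neurobasal medium with B27 (10%) and GlutaMAX (1%) at 37 °C under 5% CO2, given fresh medium with B27 and penicillin-streptomycin in all 3 libraries, and collected for total RNA with a treatment time of 24 h. The 3 libraries, replicates 1 to 3, form a single group, so that levels and the spread between libraries can be described but no treatment effect. The design also names neurons given apoE particles, which were not analysed here. Since no label ties the libraries to different cultures or mice, the p-values below measure a spread that may be technical.

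Nearly all mitochondrial proteins are encoded in the nucleus, made in the cytosol and brought into the organelle by translocases. The TOM complex is the common gate of the outer membrane. From there SAM inserts barrel-shaped proteins into the outer membrane, small chaperones carry hydrophobic proteins across the intermembrane space, Chchd4 folds proteins by forming disulfide bonds, TIM22 inserts metabolite carriers into the inner membrane, and TIM23 with its motor draws proteins that bear a presequence into the matrix, where the peptidase MPP removes that presequence. Neurons depend on this supply in long axons and at synapses, and loss of the small chaperone TIMM8A in humans causes a syndrome of deafness and dystonia.

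The deposited value is a log2 level per gene and library that behaves like a regularized log, in which differences between libraries are shrunken. Whole reads were recovered from these values, and summed to 18780572, 18683966 and 18885652 in replicates 1, 2 and 3. Levels given as CPM (recovered reads per 1000000) are means ± SD over the libraries (n = 3 throughout), and orders of level among the members are given per kilobase. No 2 libraries matched within counting noise, so the 3 were counted separately. All 8 neuron markers were detected, led by Map2 at 1528 ± 50.8 CPM, but astrocyte markers (5 of 6, Slc1a3 980 ± 9.44 CPM, Gjb6 below 1 CPM), progenitor markers (6 of 6, Fabp7 622 ± 22.9 CPM) and oligodendrocyte lineage markers (6 of 6, Olig1 159 ± 9.64 CPM) were detected too. Of 7 microglial markers 1 was detected (C1qa, 1.79 ± 0.54 CPM, with Aif1, P2ry12 and Tmem119 below 1 CPM in every library), and of 6 endothelial and mural markers 2 were detected (Pdgfrb highest at 9.21 ± 1.39 CPM, with Pecam1, Rgs5, Cdh5 and Cldn5 below 1 CPM and Cldn5 at 0 reads). Summed marker levels were 0.467% to 0.478% of reads for neurons, 0.135% to 0.138% for astrocytes, 0.103% to 0.107% for progenitors and 0.0280% to 0.0297% for the oligodendrocyte lineage, with at most 0.000598% for microglia and 0.00155% for vessels. The import genes are used by every cell type, and in bulk RNA their level per neuron cannot be told apart from the share of the other cells.

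The import machinery was expressed almost in full. At 1 CPM or more of the deposited level in every library, 30 of 33 members (90.9%) were detected, where 29.4% of all gene rows and 59.0% of protein coding rows met the same rule. The exceptions were Tomm6, Tomm20l and Timm8a2, each of which stayed below 1 CPM in every library. Of the 33, 29 reached 5 CPM and 28 reached 10 CPM in every library. The share of all gene rows at 5 and 10 CPM was not counted, so these counts describe the members only. The median deposited log2 value was 9.32 over all members, 5.20 over genes with a read and 9.24 over detected protein coding genes.

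Together the members took 0.151%, 0.145% and 0.145% of recovered reads in replicates 1, 2 and 3, a mean of 0.147% ± 0.00309. Tomm20 alone supplied more reads than any other member, and without it the share was 0.116% ± 0.00252. The 7 detected and 2 undetected TOM genes held 35.9% of all member reads, the TIM23 genes 15.5%, the small chaperones 12.3%, the motor 10.6%, MPP 10.2% and SAM 9.90%. Chchd4 held 2.58%, Timm22 1.86% and Timmdc1 1.16%. These shares are of reads, not scaled by length, and their order changes with scaling. Summed per kilobase of annotated exon, the TOM genes stood at 190 CPM, the small chaperones at 189 and the TIM23 genes at 89.1. The TOM group here includes the cytosolic cochaperone Tomm34 (9.94 CPM per kilobase) and leaves out the receptor Tomm70a (26.2). Whether TOM or the small chaperones stood higher per kilobase depends on that grouping. The motor stood at 42.4, SAM at 33.8 and MPP at 32.9. For scale, the mitochondrially encoded genes took 7.13%, 8.25% and 7.61% of reads in the same libraries, so that replicate 1 had the highest share of import genes and the lowest share of mitochondrially encoded transcripts. Whether these shares are linked was not tested.

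**Figure D1:**
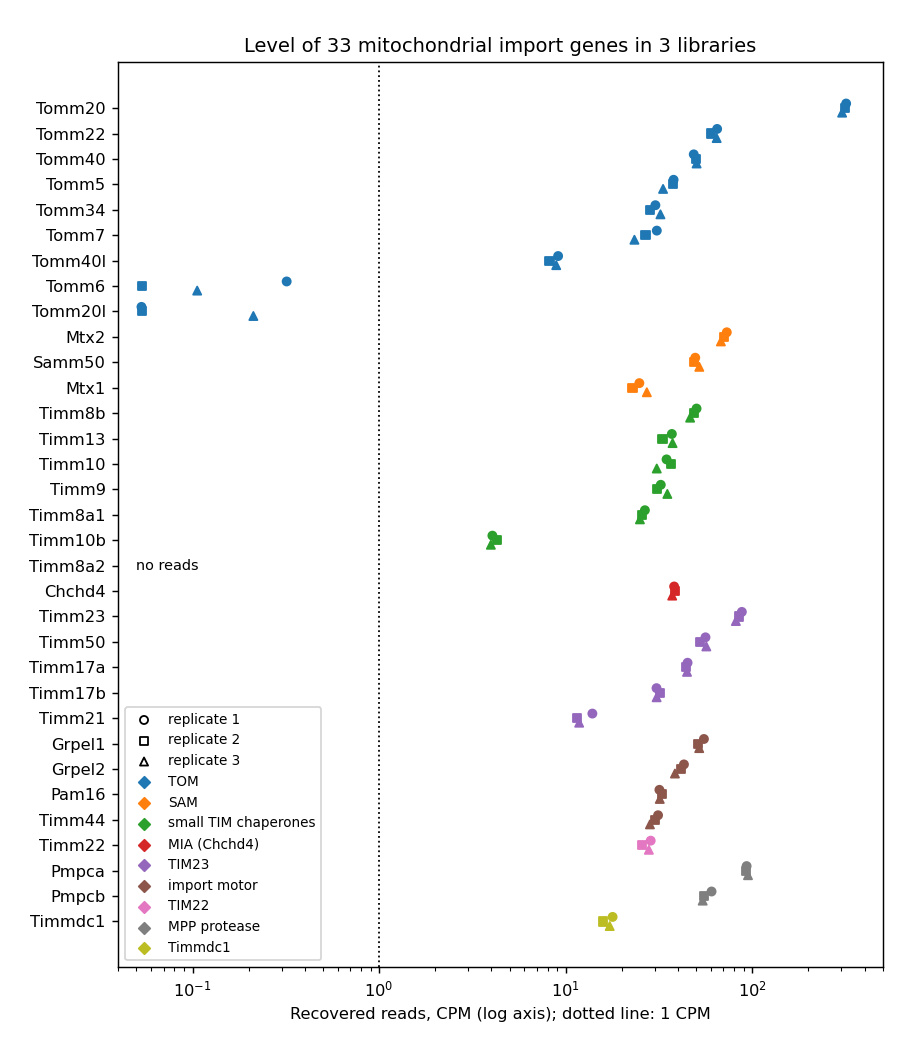
Level of each of the 33 members in CPM of recovered reads on a log axis, with 1 marker shape per library, colours for the complexes and a dotted line at 1 CPM. The 30 detected members sit to the right of the line with their 3 libraries close together, Tomm20 stands highest at 303 to 318 CPM, and Tomm6, Tomm20l and Timm8a2 fall below 1 CPM.

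Scaled by length, the members stood somewhat high among detected protein coding genes. Per kilobase of annotated exon the median of the 30 detected members was 11.6 CPM, against 6.65 CPM for detected protein coding genes, and 25 of 30 members lay above that of the coding genes. Before scaling the median was 36.0 CPM for the detected members (34.0 CPM for all 33) and 32.3 CPM for detected protein coding genes, with 18 of 30 members above. Member genes are short: their exons summed to a median of 3183 bases (4711 for detected protein coding genes) and their coding sequences to 516 bases (1425). These are descriptions of a list of names, and no test of the list was made.

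**Figure D2:**
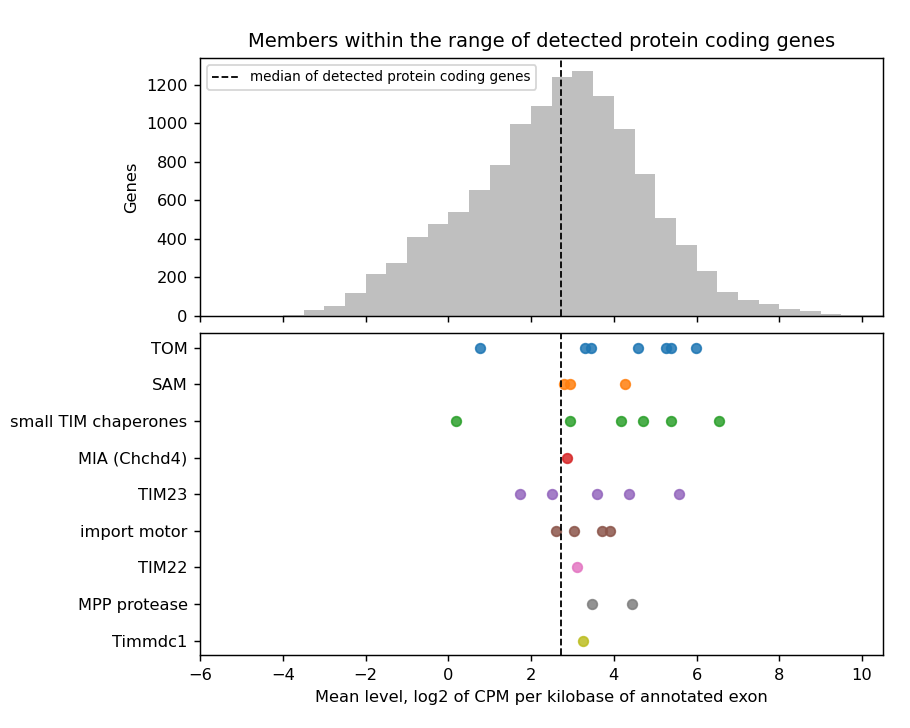
The upper panel counts detected protein coding genes by mean level (log2 of CPM per kilobase of annotated exon), and the lower panel places the 30 detected members on the same axis by complex. The dashed line is the median of detected protein coding genes, and 25 of the 30 members lie to its right, with the 5 others spread over TOM, the small chaperones, TIM23 and the motor.

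Between the highest and the lowest detected member the level per kilobase of exon ranged 81.9-fold, with Timm8b at 93.7 ± 3.75 and Timm10b at 1.14 ± 0.0452 CPM per kilobase. The order began with Timm8b, Tomm20 (63.6 ± 1.62), Timm23 (47.5 ± 1.75), Timm10 (41.8 ± 3.69), Tomm5 (41.7 ± 2.96) and Tomm22 (38.3 ± 1.55), and ended with Timm17a (5.65 ± 0.0501), Timm21 (3.33 ± 0.355), Tomm40l (1.70 ± 0.0935) and Timm10b. The 3 highest did not overlap in their libraries' ranges, whereas Timm10 overlapped Tomm5 and Tomm5 overlapped Tomm22. In all, 15 of the 29 neighbouring pairs in this order overlapped. Annotated exon length adds up every exon of a gene and can exceed the transcript made. On the coding length of the principal annotated transcript the order was led instead by Tomm20 (717 ± 18.2 CPM per coding kilobase), Tomm5 (237 ± 16.8), Timm8b (195 ± 7.80), Tomm7 (163 ± 22.5) and Tomm22 (148 ± 5.99), and it ended with Timm10b (13.7 ± 0.540) and Tomm40l (9.45 ± 0.520). Tomm20 and Timm8b were in the first 3 and Timm10b and Tomm40l in the last 2 on both scales. Neither scale allows for exon bases shared with other genes. These are 64.3% of the exon bases of Tomm40l and 22.1% of those of Timm10b, so both places are uncertain.

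Within TOM, the presequence receptor Tomm20 was the leading gene. Tomm20 (chr8:126930667-126945844, minus strand, GRCm38) had deposited log2 values of 12.53, 12.52 and 12.50 and 318, 314 and 303 CPM in replicates 1 to 3. The second receptor, Tomm22, which also organises the complex, had 64.8, 60.2 and 64.4 CPM. Tomm40 (chr7:19701313-19715438, minus strand), the barrel through which precursors pass, had 48.56, 50.04 and 50.30 CPM, or 11.0 ± 0.208 CPM per kilobase of exon. Its libraries lay within a CV of 1.89%, among the tightest of the members.

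The small TOM subunits differed in how they were counted. Tomm5 (37.9, 37.5 and 33.3 CPM) and Tomm7 (30.8, 26.8 and 23.4 CPM) are short membrane proteins that stabilise the complex, and both were lowest in replicate 3. Tomm6, the third of these subunits, had only 6, 1 and 2 reads (0.160 ± 0.141 CPM). Its position on chromosome 17 (chr17:47686646-47688386, minus strand) makes that value uncertain, because 84.2% of its 1131 exon bases also belong to exons of other annotated genes and 179 bases are its own. The overlapping genes are Gm21981 on the same strand with 2 reads in all, Tomm6os on the opposite strand with 33 reads, and Usp49 at 26.2 ± 0.383 CPM. Reads that lie in 2 genes may have been given to neither, and the treatment of such reads in the submitters' counting is not stated in the labels or files.

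Tomm34, a cytosolic cochaperone that hands precursors over, had 30.2, 28.3 and 32.2 CPM. Tomm40l, a second TOM40 barrel, reached 9.11, 8.19 and 8.90 CPM. Of its exon bases 64.3% lie within exons of Nr1i3 on the opposite strand, which had 2 reads in all. The reads of Tomm40l are therefore uncertain, as are its levels per kilobase. Tomm20l, a paralogue of the receptor, had 1, 1 and 4 reads. Tomm70a, the receptor for carrier precursors, falls outside the name rule because of its letter, and was read at 257 ± 6.70 CPM (26.2 ± 0.685 per kilobase of exon).

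**Figure D3:**
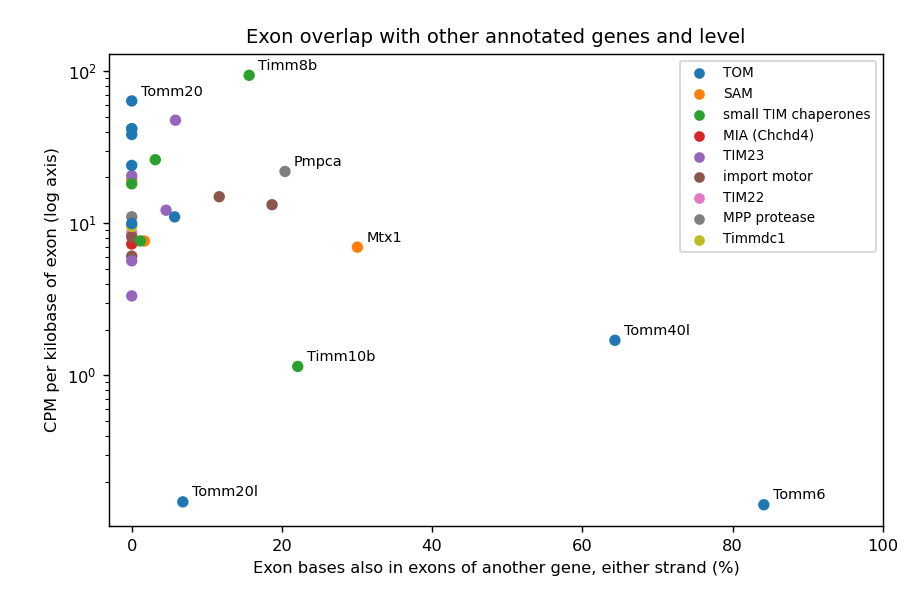
Mean level per kilobase of annotated exon (log axis) against the percentage of a member's exon bases that also lie in exons of another annotated gene on either strand, for the 32 members with a read, coloured by complex. Timm8a2, without a read, is not drawn. Tomm6 at 84.2% and Tomm40l at 64.3% stand at the right with low levels, but Tomm20l is as low as Tomm6 with little overlap, and 18 of the 33 members share no exon base.

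SAM, which folds barrel proteins such as Tomm40 into the outer membrane, was read through 3 members. Its own barrel Samm50 had 49.5, 48.7 and 52.0 CPM. The metaxins Mtx1 (24.8, 22.8 and 27.2 CPM) and Mtx2 (73.0, 70.5 and 67.9 CPM), which sit on its cytosolic side, had ranges that did not overlap. Per kilobase of exon the log2 ratio of Mtx1 over Mtx2 was −1.44 ± 0.03 in the deposited values and had an SD of 0.16 in recovered reads. Of the Mtx1 exon bases 30.1% lie in exons of Thbs3 and Gm43737 on the other strand, so its reads are uncertain. Mtx3, the third metaxin and not a member, lay at 43.6 ± 2.03 CPM.

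The small chaperones of the intermembrane space are recognised by a pair of motifs in which 2 cysteines are separated by 3 other residues. The motif pair was sought in the coding sequences of all 33 members in GENCODE M21. It was present in 7 members, all of them small chaperones, while 3 members (Tomm34, Tomm40 and Timm44) had a single such motif and 23 had none. The stretches from the first to the last of these cysteines are shown because they are the shared signature of the family, in the detected genes as in Timm8a2. Capitals mark the 4 cysteine codons, and the stretches are written 5′ to 3′ on the coding strand.
Timm8a1: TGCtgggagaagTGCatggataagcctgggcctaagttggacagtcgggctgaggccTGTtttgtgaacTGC
Timm8a2: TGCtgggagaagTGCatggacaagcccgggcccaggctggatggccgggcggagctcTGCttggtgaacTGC
Timm8b: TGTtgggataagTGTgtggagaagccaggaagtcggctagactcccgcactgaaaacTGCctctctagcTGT
Timm13: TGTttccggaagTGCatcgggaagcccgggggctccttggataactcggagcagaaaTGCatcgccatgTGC
Timm9: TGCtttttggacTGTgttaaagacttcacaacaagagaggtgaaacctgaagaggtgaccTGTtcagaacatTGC
Timm10: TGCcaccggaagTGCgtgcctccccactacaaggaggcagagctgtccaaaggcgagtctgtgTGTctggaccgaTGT
Timm10b: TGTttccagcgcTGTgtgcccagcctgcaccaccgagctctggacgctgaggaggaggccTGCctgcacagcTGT
The spacing between the motifs separated these genes. Timm8a1, Timm8a2, Timm8b and Timm13 had 14 codons between the motifs (72 bases in all), Timm9 and Timm10b had 15 (75 bases) and Timm10 had 16 (78 bases). Timm8a1 matched Timm8a2 in 59 of 72 bases (81.9%), Timm8b in 43 and Timm13 in 39.

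All small chaperones except Timm8a2 were expressed. Timm8b (chr9:50603910-50605320, plus strand) had 50.3, 48.9 and 46.4 CPM and the highest level per kilobase of exon of any member. Of its 518 exon bases 15.6% lie in exons of Nkapd1 on the other strand. Timm8a1 (chrX:134537256-134541865, minus strand) had 26.57, 25.74 and 24.99 CPM, and Timm13, its partner in a hexamer, had 37.06, 33.02 and 37.38 CPM, so that the libraries of this pair did not overlap. Timm8a1 lay below Timm13 with a log2 ratio of −0.52 ± 0.02 per kilobase of exon (SD 0.11 in recovered reads), and close to that on the coding length, at −0.50. Reads of Timm8a1 are uncertain, since 41.0% of its 50-base stretches recur in the pseudogene Gm9797, which had 139 reads.

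Timm9 and Timm10 form the hexamer that carries metabolite carriers to TIM22. Timm9 had 32.3, 30.9 and 35.1 CPM and Timm10 had 34.7, 36.7 and 30.8 CPM. Their ranges overlapped before scaling and on the coding length, where the log2 ratio of Timm9 over Timm10 was −0.04 with an SD of 0.22 in recovered reads, within the spread between libraries. Per kilobase of annotated exon the same ratio was −2.45 ± 0.05, since the exons of Timm9 sum to 4282 bases and those of Timm10 to 815. Timm10b, a subunit that docks the hexamer at TIM22, was the lowest detected member per kilobase of exon at 4.05, 4.28 and 3.97 CPM. Its gene shares 22.1% of its exon bases with other genes, among them Arfip2 at 125 ± 2.36 CPM.

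Chchd4, the oxidoreductase that binds the cysteine motifs of newly imported small chaperones and oxidises them, had 38.1, 38.4 and 37.2 CPM, a CV of 1.60%.

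TIM23, the presequence translocase, was led by its channel subunit Timm23 with 87.9, 84.9 and 81.6 CPM. Of its 50-base stretches, 57.5% recur in other genes, among them Gm10273 with 273 reads (4.85 ± 1.06 CPM), so that some of its reads may have been lost or gained. The receptor Timm50, which takes precursors from TOM, had 56.1, 52.2 and 56.7 CPM. Timm21, which links TIM23 to TOM and to respiratory chain assembly, was the lowest TIM23 gene on both length scales at 13.9, 11.5 and 11.8 CPM.

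The 2 forms of the other channel subunit, Timm17a and Timm17b, were both expressed. Timm17a had 45.0, 44.2 and 44.7 CPM, the smallest CV of any detected member at 0.886%, and Timm17b had 30.7, 32.0 and 30.7 CPM. Which of them was higher depended on the length used. Per kilobase of annotated exon Timm17a lay below Timm17b, with a log2 ratio of −1.11 ± 0.01, because its exons sum to 7893 bases and those of Timm17b to 2557. Their coding sequences are 513 and 516 bases long, and on that scale Timm17a lay above Timm17b at 0.52 ± 0.01, and at 0.51 without scaling. In recovered reads the SD was 0.05 on each scale.

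The motor that pulls precursors into the matrix is built around the heat shock protein Hspa9. Its nucleotide exchange factors Grpel1 and Grpel2 had 55.1, 50.9 and 51.9 CPM, and 43.0, 41.7 and 38.5 CPM. Grpel1 exceeded Grpel2 by 1.29 ± 0.02 log2 units per kilobase of exon and by 0.40 on the coding length (SD 0.07 in recovered reads), and in each library. Timm44, the scaffold that ties Hspa9 to the channel, had 31.3, 30.1 and 28.3 CPM. Pam16, whose yeast counterpart regulates the stimulation of this chaperone, had 31.8, 32.9 and 31.9 CPM, and 35.7% of its 50-base stretches recur in other genes such as Gm9803 with 134 reads.

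Timm22, the channel of the carrier translocase, had 28.5, 25.7 and 27.9 CPM. Timm23 exceeded it by 2.45 ± 0.02 log2 units per kilobase of exon and by 1.51 on the coding length. The peptidase that removes presequences has a substrate-binding subunit, Pmpca (93.2, 92.8 and 94.8 CPM), and a catalytic subunit, Pmpcb (60.5, 55.2 and 54.2 CPM). Pmpca exceeded Pmpcb by 0.98 ± 0.03 log2 units per kilobase of exon and by 0.62 on the coding length (SD 0.09 in recovered reads), although the 2 subunits act as a dimer. The exons of Pmpca share 20.4% of their bases with Inpp5e, read at 19.9 ± 0.241 CPM. Timmdc1, a complex I assembly factor related to Timm17, had 17.8, 15.9 and 17.2 CPM.

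The paralogues gave the widest ratios. Tomm20 had 17572 reads over the 3 libraries and Tomm20l 6, a ratio of 2929 (exact Clopper-Pearson 95% interval 1345 to 7981, counting error only). Timm8a1 had 1452 reads and Timm8a2 none, so that Timm8a1 was at least 484-fold higher when 3 reads over the group are taken as the limit that a count of 0 allows. These ratios are of reads, not corrected for length; the coding sequences of Timm8a1 and Timm8a2 are both 291 bases long. The coding sequences of Tomm20 and Tomm20l have 435 and 456 bases, and their levels were 717 ± 18.2 and 0.233 ± 0.201 CPM per coding kilobase. The log2 pair ratios of these genes depend on the CPM added before the logarithm: per kilobase of exon Tomm20 over Tomm20l was 6.24 with 0.5 CPM added, 7.79 with 0.1 CPM and 3.19 with 5 CPM, and Timm8a1 over Timm8a2 was 5.08, 7.38 and 1.98. Their coding sequences agree in 60.4% of aligned bases and those of Timm8a1 and Timm8a2 in 77.6%. Timm8a1 lay below its other paralogue, Timm8b, with a log2 ratio of −2.36 ± 0.008 per kilobase of exon and −1.13 on the coding length (SD 0.02 in recovered reads). Timm10 exceeded Timm10b by 5.04 ± 0.03 and Tomm40 exceeded Tomm40l by 2.63 ± 0.01 log2 units per kilobase of exon. On the coding length these differences were 3.06 and 2.21. They are uncertain in size, since Timm10b and Tomm40l share exon bases with other genes.

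**Figure D4:**
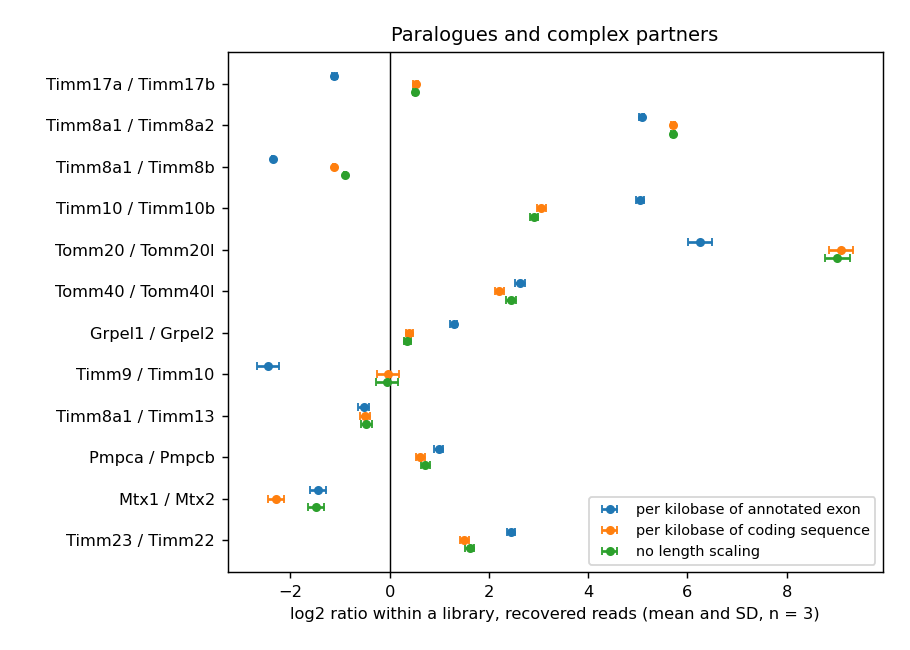
Log2 ratio within a library of 12 pairs of paralogues or complex partners, first gene over second, in recovered reads with 0.5 CPM added (mean and SD of 3 libraries) on 3 length scales. Timm17a over Timm17b changes side with the scale, Timm9 over Timm10 lies at 0 within its SD except per kilobase of annotated exon, and the other 10 pairs keep their side; the points of Timm8a1 over Timm8a2 and Tomm20 over Tomm20l depend on the added 0.5 CPM, since Timm8a2 has no reads and Tomm20l 6.

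Over the 12 pairs, the first gene was higher in every library in 7 and the second gene in 5, per kilobase of exon. Each ratio of deposited values exceeded its SD, and the SDs in recovered reads ran from 0.02 to 0.25. The two-sided exact permutation p was 0.25 for every pair (0.25 after Benjamini-Hochberg adjustment over the 12), the smallest that 3 libraries allow, so no pair could pass a threshold of 0.05. With no length scaling and on the coding length 10 of 12 pairs kept their direction by more than the SD in recovered reads. Timm17a over Timm17b turned round, and Timm9 over Timm10 lay within that SD.

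Upstream sequence was compared for the 2 paralogue pairs with the widest ratios, since each pair holds a gene with abundant reads and a gene with few or none. The 250 bases before the start annotated in RefSeq, from its promoter table on GRCm38.p6, are printed 5′ to 3′ on the gene's strand with each CG in capitals. For Timm8a1 the RefSeq start lies within the gene as GENCODE M21 places it, so that 195 of its 250 bases are inside that interval; for the other 3 genes none are.
Tomm20 (chr8:126945922-126946171, minus strand): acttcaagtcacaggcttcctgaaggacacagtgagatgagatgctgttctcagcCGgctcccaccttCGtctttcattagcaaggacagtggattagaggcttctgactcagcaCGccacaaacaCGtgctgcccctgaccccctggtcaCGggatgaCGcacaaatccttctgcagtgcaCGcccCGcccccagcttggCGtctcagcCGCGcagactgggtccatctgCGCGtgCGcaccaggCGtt
Tomm20l (chr12:71111178-71111427, plus strand): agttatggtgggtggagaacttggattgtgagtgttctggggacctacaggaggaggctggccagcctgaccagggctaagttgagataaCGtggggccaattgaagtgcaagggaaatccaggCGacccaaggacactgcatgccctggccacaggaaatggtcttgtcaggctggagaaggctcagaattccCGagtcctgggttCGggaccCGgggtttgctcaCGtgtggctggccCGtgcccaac
Timm8a1 (chrX:134541671-134541920, minus strand): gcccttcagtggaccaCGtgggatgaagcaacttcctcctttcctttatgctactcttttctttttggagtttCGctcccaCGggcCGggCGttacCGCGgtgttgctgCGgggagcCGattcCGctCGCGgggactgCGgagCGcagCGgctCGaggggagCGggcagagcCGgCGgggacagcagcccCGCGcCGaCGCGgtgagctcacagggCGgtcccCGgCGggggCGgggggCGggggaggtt
Timm8a2 (chr14:122034424-122034673, plus strand): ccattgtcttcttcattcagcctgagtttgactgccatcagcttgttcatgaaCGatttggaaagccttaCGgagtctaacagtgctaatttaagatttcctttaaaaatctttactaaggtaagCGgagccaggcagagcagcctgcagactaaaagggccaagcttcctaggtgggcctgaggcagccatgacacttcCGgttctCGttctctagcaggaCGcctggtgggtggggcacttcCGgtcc
Tomm20 had 15 CG dinucleotides in this stretch and Tomm20l 7, and Timm8a1 had 29 and Timm8a2 7. Over the table's whole window of 300 bases, 29 members had an entry, with 7 to 55 CG and a median of 20, against 7 for all promoters and 21 for those of detected protein coding genes. In that window Tomm20l had 13 and Timm8a2 had 10, above the median of all promoters, and Tomm5, a detected member, had the lowest count of the 29 at 7. No data on binding or methylation were analysed here.

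The spread of the members between libraries was close to that of other genes. The CV of the 30 detected members ran from 0.886% to 13.8% with a median of 4.29%, and it was 4.06% for the 2147 detected protein coding genes with levels between the quartiles of the members (28.01 to 51.98 CPM). Scaled reads differed between the lowest and highest library by 1.012-fold to 1.307-fold with a median of 1.08. Among genes with 100 scaled reads or more the median was 1.09 for the 29 members and 1.08 for all 11185 genes. Each gene with a mean of 10 recovered reads or more, 15131 in all, was tested against counting error with a chi-square statistic on 2 degrees of freedom. The median chi-square was 2.70 for the members and 2.39 for all genes tested. Of the 30 members 1 passed at an adjusted p below 0.05, where 8.62% of all genes tested did. Against the dispersion trend fitted over all genes, no member passed, where 0.330% of genes did; at an unadjusted p below 0.05, 1 member and 6.21% of genes passed by the same chi-square test.

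The member that passed against counting error was Tomm7. It had 578, 500 and 441 reads in replicates 1, 2 and 3, highest in replicate 1 and lowest in replicate 3. The scaled reads spanned 1.31-fold (chi-square 18.1, adjusted p = 0.00307 with Benjamini-Hochberg over all genes tested), but against the dispersion trend the adjusted p was 0.326. The call rested on both outer libraries, since the adjusted p was 0.269 without replicate 1 and 0.189 without replicate 3. The next smallest p values belonged to Timm10 (652, 685 and 581 reads, adjusted p = 0.0753), Mtx1 (466, 426 and 514 reads, 0.151), Pmpcb (1136, 1031 and 1024 reads, 0.215) and Tomm5 (711, 701 and 628 reads, 0.222), none of which passed. These 5 were the members with an unadjusted p below 0.05 against counting error, a level reached by 20.7% of all genes tested.

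Of the 30 members, 15 were highest in replicate 1, 5 in replicate 2 and 10 in replicate 3, where 31.8%, 33.6% and 34.6% of genes with 100 scaled reads or more were. Lowest were 4, 13 and 13 members in replicates 1, 2 and 3, where 29.1%, 38.9% and 32.0% of those genes were. The median deviation of members from the mean of the libraries was 0.03, −0.004 and −0.01 log2 units in replicates 1, 2 and 3, and that of genes with 100 scaled reads or more was 0.003, −0.005 and 0.002; these differences were not tested. The 4 tested members with exons of 1200 bases or less (Timm10, Tomm5, Tomm7 and Timm8b) were each lowest in replicate 3, with median deviations of 0.05, 0.04 and −0.13. The 230 protein coding genes of that length with 100 scaled reads or more, these members included, deviated by 0.03, 0.01 and −0.02, and 20% of them varied beyond counting error, against 11.1% of 10315 longer coding genes. With size factors fitted within 20 bins of exon length, the chi-square test gave Tomm7 an adjusted p of 0.01001 against counting error. Against the dispersion trend it gave 0.451. Whether exon length bears on the spread of Tomm7 was not tested.

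**Figure D5:**
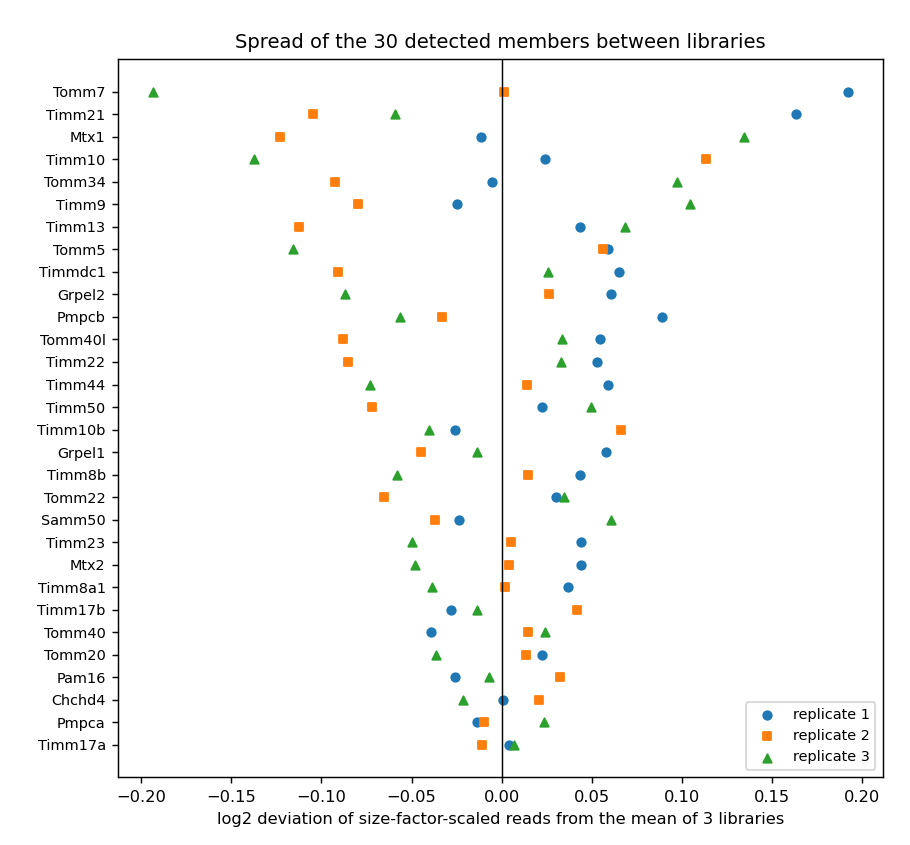
Log2 deviation of size-factor-scaled recovered reads in each library from the mean of the 3 libraries, for the 30 detected members in order of their range. Tomm7 at the top runs from 0.19 in replicate 1 to −0.19 in replicate 3, while Timm17a at the bottom stays between −0.01 and 0.01.

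A chosen list of 40 further genes of mitochondrial import and maturation, which the name rule leaves out, was expressed in full. All 40 genes of this list of cytosolic chaperones, motor chaperones, proteases, cristae organisers and insertases were detected. By the same rule 29.4% of all gene rows and 59.0% of protein coding rows were detected. The median of the 40 was 53.9 CPM (16.5 per kilobase of exon). The 5 highest by deposited value were the cytosolic chaperones Hspa8 (1693 ± 17.5 CPM) and Hsp90aa1 (995 ± 24.6), the motor chaperone Hspa9 (654 ± 6.46), Mtch1 (284 ± 12.2), an insertase of the outer membrane, and Tomm70a. Per kilobase of annotated exon Hspa9, at 152 CPM, lay above every member of the import machinery. It was not compared with them on the coding length, where Tomm20 led the members at 717 CPM per coding kilobase. None of the 40 stayed below 1 CPM in every library. Of the 40, 7 varied beyond counting error (8.62% of all genes) and none beyond the dispersion trend (0.330%).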

How the data were processed

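Total RNA of 3 fresh-medium libraries was sequenced on the DNBSEQ platform, per the labels. The submitters' processing notes name FastQC, HISAT2, featureCounts, DESeq2 and GRCm38, without versions, settings or the treatment of strand. The authors deposited 1 log2 value per gene and library, for 47593 rows, of which 21897 were 0 in every library. These values have the form of a regularized log, and their SD understates the spread between libraries.

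Whole reads were recovered by inverting a ridge-penalised negative binomial fit, as an alternative to the deposited values: 99.941% of 67797 values came within 0.1 of a whole read (20% by chance), and refitting gave 100% of 22599 genes to within 0.001. The refit reused the settings of the inversion, and 0.001 is wide for strongly shrunken values, so it is a weak check. In ranges of level ahead of those used in the fit, the lowest share within 0.1 of a whole read was 96.6%. For the 32 members with reads the largest distance from a whole read was 0.0648. A count of 0 allows up to 0.161 CPM (3 reads) in a library. Such limits take in counting error alone, because copies of a molecule made by PCR were not told apart.

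Detection used 2 raised to the deposited value divided by its sum over genes (1 CPM or more in every library). Pair ratios were log2 differences within a library with 0.5 CPM added, per kilobase, and were tested by an exact sign-flip permutation. Variation between libraries was tested on recovered reads with median-of-ratios size factors and Benjamini-Hochberg adjustment over all genes tested. On simulated data for 15187 genes, the test against the trend recovered 96% of genes changed 1.5-fold and 100% of those changed 3-fold. It also called 11 unchanged genes. The changed genes, 100 for each fold, had means of 100 reads or more, so the rates do not cover genes with fewer reads. The simulated dispersion was higher than the fitted trend. Of the rows, 45192 matched a unique name in GENCODE M21, which gave coordinates, exon overlap and shared 50-base stretches. Python 3.11.15, NumPy 2.4.6, SciPy 1.17.1, pandas 2.3.3 and Biopython 1.88 were used.

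The members, lists, pairs and tests were chosen with earlier results of these data known. Named genes were all members and both genes of each pair. Further names were the 5 members with the smallest p for variation and the 5 highest of the other import genes. Of each marker list the highest gene and those below 1 CPM were named. Overlapping and neighbouring genes were named after their values were seen, where the data held a row for them.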

Additional observations from a re-analysis of the deposited data

How the results depend on the processing

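No paired analysis was possible because the 3 libraries form a single group. Over 20 results, 151 alternative values were computed: 139 kept their direction, call or size, 8 moved, 2 reversed and 2 lost a call. Leaving out a library cannot reverse a pair with the same sign in every library, so that much of this stability follows from the design. The reversals were Timm17a over Timm17b, at 0.51 without length scaling and 0.52 on the coding length (−1.11 per kilobase of exon); they follow from exon length. The other 94 pair alternatives kept the sign of the mean, but 2 of them, Timm9 over Timm10 at −0.05 without length scaling and −0.04 on the coding length, lay within the SD of 0.22 in recovered reads. The member share was 0.159% with mitochondrially encoded genes left out of the sum (0.147% with them), and the median level was 9.40 with undetected members left out (9.32 with them).

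The count of members varying beyond counting error was 0 to 1 when a library was left out (1 with all 3): none without replicate 3, and without replicate 1 it was Timm10 in place of Tomm7. The adjusted p of Tomm7 ranged from 0.00182 to 0.269 over its alternatives, with 0.269 without replicate 1 and 0.189 without replicate 3. Leaving out a library moved the count over all genes from 1304 to between 334 (without replicate 2) and 1187 (without replicate 1), with 835 without replicate 3, and the count against the dispersion trend from 50 to 6 without replicate 1, 19 without replicate 2 and 30 without replicate 3. The exon-length bins and the alternatives to the counts against the dispersion trend were added after the data were seen. Depth limits statements on Tomm6, Tomm20l and Timm8a2, with 9, 6 and 0 reads in all.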

Other observations

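Several import genes share a start region with another gene on the opposite strand. Of the 30 detected members, 8 (26.7%) had a protein coding gene starting within 1000 bases in the opposite orientation, against 1948 of 12456 detected protein coding genes (15.6%); the difference was not tested. Timm8b starts 98 bases from Sdhd, a subunit of respiratory complex II read at 56.5 ± 2.65 CPM. Timm23 starts 51 bases from Parg (41.7 ± 2.44 CPM), and Chchd4 starts 157 bases from Tmem43 (72.4 ± 1.66 CPM). The remaining 5 were Pmpca with Entr1, Timm17b with Pqbp1, Timm9 with 2700049A03Rik, Tomm34 with Stk4 and Timm10b with Arfip2, the last 2 with overlapping starts. Entr1 has no row of that name in the data, so its level was not read. The other neighbours were named after their values were seen.

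Tomm40 lies 2124 bases from Apoe, the lipoprotein gene that the wider series concerns, on the same strand of chromosome 7 (Apoe at chr7:19696109-19699188, GRCm38). Tomm40 was read at 48.56, 50.04 and 50.30 CPM in replicates 1, 2 and 3, and Apoe at 1262, 1191 and 1220 CPM. Per kilobase of exon this is 11.0 ± 0.208 CPM for Tomm40 and 573 ± 16.8 CPM for Apoe (SD, n = 3).

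Among 29 members with a RefSeq promoter of 300 bases, 13 (44.8%) held the letters CCGGAAG, the core bound by ETS factors, on either strand. The same letters occurred in 8.86% of all 32851 promoters and in 16.2% of 12712 promoters of detected protein coding genes. The 13 were Grpel1, Mtx1, Mtx2, Pmpca, Pmpcb, Timm10, Timm10b, Timm23, Timm8a2, Timm8b, Timmdc1, Tomm22 and Tomm34. Timm8a2 has no reads, so the letters occur upstream of an undetected member too. The palindromic NRF1 motif of 10 bases occurred in 0 of 29 (0.971% of all promoters and 1.99% of those of detected protein coding genes). The YY1 letters AAGATGGC occurred in 2 (Mtx1 and Timm50, against 2.75% of all promoters and 4.15% of those of detected protein coding genes) and TATAAA in 2 (Timm13 and Tomm5, against 13.6% and 6.76%). A match is a run of letters and not a binding site, and no overlap between the motifs was resolved.

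The gene 1810026J23Rik, which the RefSeq table lists as a synonym of Timm29, a subunit of TIM22, was read at 106, 101 and 102 CPM. It carries an older name and so falls outside the name rule.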
